A study of Caenorhabditis elegans with 12 samples.

Results

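The 21U-RNA genes are the genes of the C. elegans piRNAs, and most of them lie in a pair of broad clusters on chromosome IV. Members were taken from the gene table as all genes annotated with a length of exactly 21 bases on chromosome IV that start between 4500000 and 7000000 (the small cluster) or between 13500000 and 17200000 (the large cluster). This rule found 14206 of the 46760 genes listed, or 30.4%, with 2816 in the small cluster and 11390 in the large cluster. They make up 92.4% of the 15371 genes of 21 bases in the table, and the other 1165 (511 of them elsewhere on chromosome IV) were used for comparison. The annotation names 2816 of the 2816 small cluster genes and 11388 of the 11390 large cluster genes as piRNA genes, so the name fits the rule.

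H3K9me3, a histone mark of silent chromatin, was profiled by CUT&Tag, in which an antibody tethers the Tn5 transposase so that DNA near the mark is cut and sequenced. The nuclei were germline nuclei purified from whole worms on day 1 of adulthood, grown at 20 °C. Wild-type animals (N2) were compared with hrde-1(tm1200) III animals (strain USC661) and hrde-2/enri-3(qe20) V animals (strain FD53). HRDE-1 is the germline nuclear Argonaute that carries 22G-RNAs to nascent transcripts and directs H3K9me3, and HRDE-2 works with it. Each genotype had 3 H3K9me3 libraries and 1 library labelled IgG, the label of which names a secondary antibody; the study states that its negative control had no primary antibody, without naming these libraries. Each mutant was a single allele, and according to the study the H3K9me3 antibody also binds H3K27me3 and H4K20me3.

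In C. elegans, each 21U-RNA comes from its own short transcript, made by RNA polymerase II from its own small promoter, and is bound by the PIWI Argonaute PRG-1 in the germline. Genes of the clusters carry an upstream sequence known as the Ruby motif, and their transcription needs the complex of PRDE-1, SNPC-4, TOFU-4 and TOFU-5. Targets recognised by PRG-1 are passed to 22G-RNAs and, in the nucleus, to HRDE-1, so these genes act upstream of HRDE-1. The mutants affect HRDE-1 in different ways. According to the study, HRDE-1 stays nuclear in the hrde-2 mutant but binds small RNAs against targets of another Argonaute, CSR-1. The study reports increased H3K9me3 at those targets, so the hrde-2 mutant is not a second loss of HRDE-1. The comparison addressed here was how much of the H3K9me3 CUT&Tag signal lay on the genes themselves, in each cluster and in each genotype.

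The genes themselves are printed to show how little sequence was available for counting. The first 6 were the members with the most H3K9me3 counts, 3 in each cluster. The last, 21ur-5149, was the 1 member called in the test of single genes, in hrde-1 against wild-type. That call was lost in all 9 fits that left out 1 library. Each line gives 81 bases of the WBcel235 RefSeq genome, 5′ to 3′ on the strand of the gene. The last 21 bases are the gene, the 60 before it lie upstream, and capitals mark the letters CTGTTTCA, the core of the Ruby motif.
21ur-7377: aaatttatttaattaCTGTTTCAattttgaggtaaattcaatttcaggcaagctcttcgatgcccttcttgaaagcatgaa
21ur-11105: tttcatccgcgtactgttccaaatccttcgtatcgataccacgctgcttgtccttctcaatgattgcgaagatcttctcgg
21ur-14134: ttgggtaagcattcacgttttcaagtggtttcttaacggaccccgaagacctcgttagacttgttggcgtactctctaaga
21ur-15381: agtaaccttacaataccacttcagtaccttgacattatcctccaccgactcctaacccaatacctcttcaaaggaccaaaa
21ur-15575: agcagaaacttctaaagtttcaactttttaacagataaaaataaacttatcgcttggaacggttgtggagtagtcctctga
21ur-3387: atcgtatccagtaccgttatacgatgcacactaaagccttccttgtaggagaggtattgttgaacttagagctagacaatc
21ur-5149: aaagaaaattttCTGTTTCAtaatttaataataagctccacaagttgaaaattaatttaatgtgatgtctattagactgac

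In the small cluster, the 81 bases of 21ur-7377 (WBGene00173270) lie at chrIV:5265097-5265177 on the minus strand, outside any gene. Those of 21ur-11105 (WBGene00173944) lie at chrIV:6008418-6008498 on the plus strand, also outside any gene. Those of 21ur-14134 (WBGene00168411) lie at chrIV:5502673-5502753 on the plus strand, with the gene in an intron of unc-5, the netrin receptor gene, and those of 21ur-5149 (WBGene00050040) at chrIV:5602068-5602148 on the minus strand, with the gene in an intron of fkh-7, a forkhead transcription factor gene. In the large cluster, the bases of 21ur-15381 (WBGene00173092) lie at chrIV:15895651-15895731 on the plus strand, outside any gene. Those of 21ur-15575 (WBGene00173505) lie at chrIV:16316059-16316139 on the minus strand, with the gene in an intron of a pseudogene, and those of 21ur-3387 (WBGene00048267) at chrIV:13888401-13888481 on the minus strand, with the gene in an intron of lin-66, a gene of developmental timing. Each of these stretches occurs at 1 place in the genome; of all members, 42 of the large cluster and 0 of the small cluster have 81 bases that occur more than once, and their counts are uncertain.

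The core motif was in the printed bases of 21ur-7377, where it ends 37 bases before the gene, and of 21ur-5149, where it ends 40 bases before it. It was not among these letters for the other genes, and 21ur-15575 is among the members whose first base is not T. Over all members, the 8 letters were found on the strand of the gene within the 60 upstream bases for 39.7% of the small cluster genes (1117) and 33.6% of the large cluster genes (3827), against 17.6% of the 21-base genes elsewhere (205). Of all 60-base windows of chromosome IV, read on both strands, 0.885% hold the same letters. Where the motif was present, it ended 37 to 39 bases before the gene in 80.0% of the small cluster genes and 77.1% of the large cluster genes, with a median of 38 bases in the small cluster. The first base of the gene was T in 95.6% of the small cluster genes and 96.4% of the large cluster genes.

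The clusters differ in how they are packed. The small cluster runs from 4630304 to 6998272 and the large cluster from 13543927 to 17199461, in the coordinates of WS258. The median distance from a member to the nearest other 21-base gene was 117 bases in the small cluster and 15 bases in the large cluster, and 35.5% (1000) and 47.9% (5458) of the members overlapped another 21-base gene. Members with more than 200 bases to any other listed exon are called isolated here, and there were 556 in the small cluster (19.7%), 1137 in the large cluster (9.98%) and 384 among the other 21-base genes (33.0%). Small cluster members lay in introns of longer genes in 50.2% of cases, in exons in 7.78% and between genes in 42.0%, and large cluster members in 30.7%, 4.12% and 65.2%. The DNA around the members is rich in A and T, with a median GC content of the gene and 100 bases on each side of 28.5% in the small cluster, 27.1% in the large cluster and 31.2% at the other 21-base genes.

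The lower bounds of the clusters fall in gaps between 21-base genes, and the upper bounds fall closer to such genes. At the lower bound of the small cluster, the first member was 21ur-9960 (start 4630304, 31 counts over the 9 H3K9me3 libraries) and the last gene left out was 21ur-14085 (start 4437744, 53 counts). At its upper bound, 21ur-9962 (start 6998252, 7 counts) was in and 21ur-14807 (start 7006903, 0 counts) was out. At the lower bound of the large cluster, 21ur-6256 (start 13543927, 10 counts) was in and 21ur-15078 (start 13469849, 397 counts) was out, and at its upper bound 21ur-13926 (start 17199441, 15 counts) was in and 21ur-5689 (start 17200219, 10 counts) was out.

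The H3K9me3 libraries held between 1470699 (wild-type replicate 2) and 8719542 counts in all, and the IgG libraries 233980 (wild-type), 37617 (hrde-1) and 13950 (hrde-2). Ribosomal RNA genes took 13.2% to 24.6% of the H3K9me3 counts and 23.5% to 35.1% of the IgG counts, so shares are given over nuclear counts without rRNA genes, and CPM stands for counts per 1000000 of these. The counts do not show the mutations: the hrde-1 gene had 109 ± 8.23 CPM in wild-type, 114 ± 8.65 in hrde-1 and 144 ± 6.44 in hrde-2 libraries (SD, n = 3), and the hrde-2 gene 26.5 ± 3.36, 25.9 ± 2.93 and 29.6 ± 1.46. Among the H3K9me3 libraries, wild-type replicate 3 had the highest rRNA share and the lowest share on both piRNA clusters.

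Members took a small part of the signal in every library. In wild-type, the small cluster held 0.137%, 0.125% and 0.0866% of the counts in replicates 1 to 3 (0.116% ± 0.0261, SD, n = 3). In hrde-1 it held 0.107%, 0.113% and 0.109% (0.110% ± 0.00334), and in hrde-2 0.138%, 0.114% and 0.104% (0.118% ± 0.0174). The genotypes overlap: the 3 wild-type libraries cover nearly the whole range seen in the 9. The mean difference was -0.0064 percentage points in hrde-1 (exact two-sided permutation test, p = 0.7) and +0.0025 in hrde-2 (exact permutation p = 0.9), and hrde-2 minus hrde-1 was +0.0089 (exact permutation p = 0.6).

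The large cluster held 0.428%, 0.413% and 0.274% of the counts in wild-type (0.372% ± 0.0849, SD, n = 3). It held 0.302%, 0.321% and 0.311% in hrde-1 (0.311% ± 0.00964) and 0.419%, 0.342% and 0.308% in hrde-2 (0.356% ± 0.0572). Wild-type replicates 1 and 2 were above all 3 hrde-1 libraries and wild-type replicate 3 was below them. The mean was 0.0605 percentage points lower in hrde-1 than in wild-type, a change of -16.3% of the wild-type value (exact permutation p = 0.4), and 0.0156 lower in hrde-2 (exact permutation p = 0.9), while hrde-2 minus hrde-1 was +0.0449 (exact permutation p = 0.3). Adjusted over the 6 share comparisons by the Benjamini-Hochberg method, p was 0.9 for each. The exact permutation test cannot go below 0.1 with groups of 3, and the labels call the replicates biological. Leaving out 1 library, the large cluster difference ranged from -0.109 (without wild-type replicate 3) to -0.0322 (without wild-type replicate 1) in hrde-1 minus wild-type and from 0.0133 (without hrde-2 replicate 1) to 0.0691 (without hrde-2 replicate 3) in hrde-2 minus hrde-1. No gain or loss of signal on the clusters between genotypes was detectable with these libraries.

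**Figure D1:**
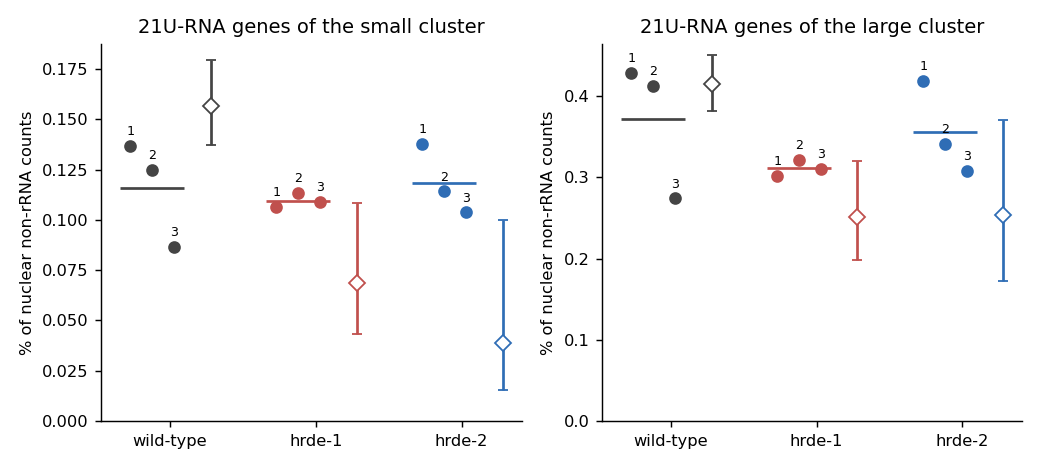
Share of nuclear counts without rRNA genes (percent) on the small and the large cluster, by genotype. Filled points are H3K9me3 libraries numbered by replicate, bars are means over 3 libraries, and open diamonds are the single IgG libraries with Wilson 95% intervals; wild-type replicate 3 is the lowest H3K9me3 point in both panels (0.0866% and 0.274%).

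The libraries labelled IgG gave the background. The wild-type IgG library had 215 counts on the small cluster, a share of 0.157% (Wilson 95% interval 0.137 to 0.179), the hrde-1 IgG library 18 counts (0.0686%, 0.0434 to 0.108) and the hrde-2 IgG library 4 counts (0.0390%, 0.0152 to 0.100). On the large cluster they had 569 counts (0.415%, 0.382 to 0.451), 66 counts (0.252%, 0.198 to 0.320) and 26 counts (0.253%, 0.173 to 0.371). Over 9 H3K9me3 libraries against 3 IgG libraries the mean was 0.0265 percentage points higher on the small cluster (exact permutation p = 0.236) and 0.0397 higher on the large cluster (exact permutation p = 0.395), with p = 0.395 for both after adjustment over the 2 clusters. This call depended on the denominator: as shares of all counts, rRNA and mitochondrial genes included, the difference passed the exact permutation test for the small (p = 0.0227) and the large cluster (p = 0.0409), and over nuclear counts with rRNA for the small cluster (p = 0.0318) but not the large (p = 0.0727). All 3 wild-type H3K9me3 libraries had a lower small cluster share than the wild-type IgG library, and the 3 libraries of each mutant had a higher share than their own IgG library. The intervals cover counting error only, and the reads have no molecular identifiers.

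Set against the longer genes that lie in the same intervals, the members gave the same picture. For each 100 counts on longer genes of the small cluster interval, the members had 7.27, 6.73 and 4.83 counts in wild-type, 5.66, 6.02 and 5.62 in hrde-1 and 6.99, 5.96 and 5.48 in hrde-2. In the large cluster interval they had 20.1, 18.2 and 12.8 counts in wild-type, 15.1, 15.9 and 16.0 in hrde-1 and 20.5, 16.8 and 14.8 in hrde-2. The mutants lay inside the wild-type range in the small cluster, and in the large cluster only hrde-2 replicate 1 lay outside it. No genotype difference in this ratio passed the exact permutation test (p between 0.5 and 1, adjusted p = 1 over 6 comparisons).

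The clusters were then compared with each other within each library, where the genotype and depth are the same for both. All members are 21 bases long, so counts per gene need no correction for length. The clusters also differ in packing, and the level per gene moved with the distance to other genes, as given below. Isolated members had 0.750 CPM per gene in the small and 0.712 in the large cluster. Over the 9 H3K9me3 libraries, all members of the small cluster had 0.407 ± 0.0578 CPM per gene and those of the large cluster 0.304 ± 0.0511 (SD). The log2 ratio of the large to the small cluster was -0.37, -0.29 and -0.35 in wild-type, -0.51, -0.51 and -0.50 in hrde-1 and -0.41, -0.43 and -0.45 in hrde-2. All 9 H3K9me3 libraries gave a lower level per gene in the large cluster, with a mean of -0.43 ± 0.08 (SD). The exact sign-flip permutation test gave p = 0.00391, the smallest that 9 libraries allow. The wild-type IgG library gave -0.61, lower than any H3K9me3 library, so the wild-type background had the same order. The hrde-1 and hrde-2 IgG libraries, with 18 and 4 small cluster counts, gave -0.14 and 0.68.

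This ratio of large to small cluster, unlike the shares, separated the genotypes. Its mean was -0.34 ± 0.04 in wild-type, -0.51 ± 0.006 in hrde-1 and -0.43 ± 0.02 in hrde-2 (log2, SD, n = 3). All 3 libraries of hrde-1 were below all 3 of hrde-2, and these were below all 3 of wild-type. The difference from wild-type was -0.17 in hrde-1 and -0.09 in hrde-2, and hrde-2 minus hrde-1 was +0.08, each with an exact permutation p of 0.1, the smallest that 3 against 3 libraries allow, and an adjusted p of 0.1 over the 3 contrasts, which share libraries. This exact test cannot pass 0.05 with groups of 3. In isolated members the ratio was different from wild-type by -0.18 in hrde-1 and -0.17 in hrde-2 (exact permutation p = 0.1 for each), but hrde-2 minus hrde-1 was 0.01 (exact permutation p = 0.8). In all members matched on flanking GC content, an alternative added once the values were known, the genotypes did not overlap. The libraries had -0.32 to -0.14 in wild-type, -0.36 to -0.34 in hrde-2 and -0.43 to -0.39 in hrde-1. In isolated members matched in the same way, also added later, the genotypes overlapped. The differences from wild-type were then -0.19 in hrde-1 and -0.16 in hrde-2 (exact permutation p = 0.2 for each).

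The longer genes of the same intervals shifted the same way, in both mutants relative to wild-type. Per kb of exon, the large cluster interval was above the small one by 0.31, 0.42 and 0.39 in wild-type, 0.22, 0.23 and 0.13 in hrde-1 and 0.18, 0.22 and 0.27 in hrde-2 (log2). The longer genes therefore had the opposite order to the members, with 31.2 CPM per kb in the large and 26.0 in the small interval over the 9 libraries. Both mutants lay below wild-type without overlap, with differences of -0.18 in hrde-1 and -0.15 in hrde-2 (exact permutation p = 0.1 for each), and hrde-2 minus hrde-1 was 0.03 (exact permutation p = 0.6). Longer genes of the large interval took 2.13% to 2.27% of the counts in wild-type, 1.94% to 2.02% in hrde-1 and 2.03% to 2.08% in hrde-2.

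**Figure D2:**
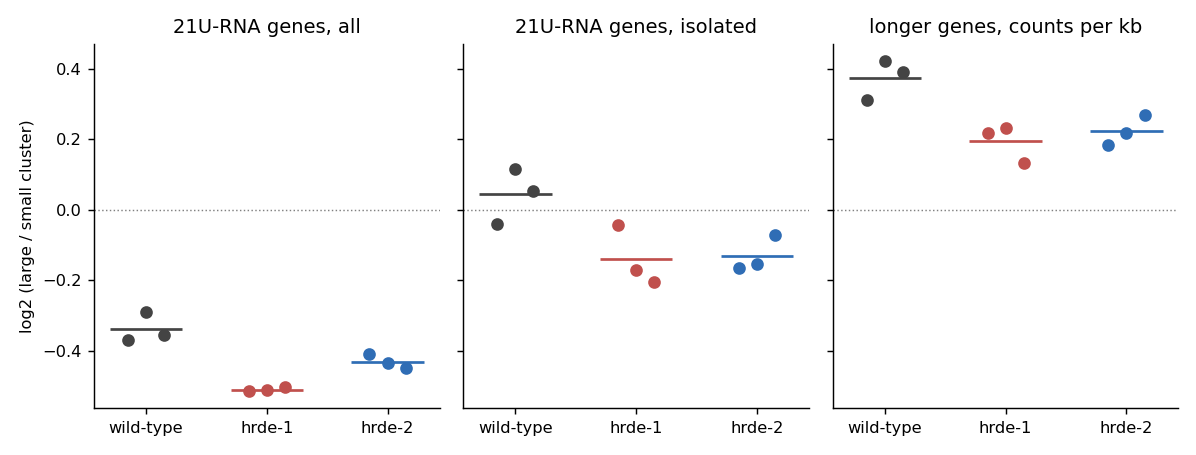
Log2 ratio of the level per gene in the large cluster to that in the small cluster, for all members, for isolated members and, per kb, for the longer genes of the same intervals. Points are H3K9me3 libraries and bars are means over 3 libraries; for all members the genotypes do not overlap (means -0.34 for wild-type, -0.51 for hrde-1 and -0.43 for hrde-2), and isolated members lie near 0.

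The level of a member moved with the distance to its neighbours. A fragment was assigned by the authors to the gene with which it overlapped most, and a member that shares its bases with another gene may lose fragments to it, since fragments tied between genes were not counted. Members of the small cluster that overlap another exon (21-base genes included) had 0.151 ± 0.028 CPM per gene (1152 genes, SD over 9 libraries), those with 1 to 50 bases to the next exon 0.355 ± 0.059 (300 genes), those with 51 to 200 bases 0.556 ± 0.066 (808 genes) and isolated members 0.750 ± 0.121 (556 genes). In the large cluster the same classes had 0.126 ± 0.023 (5771 genes), 0.321 ± 0.058 (1168), 0.468 ± 0.078 (3314) and 0.712 ± 0.112 (1137). The level rose with the distance in both clusters, and the ratio of the clusters was closest to 1 for isolated members. The IgG libraries rose in the same way in the large cluster, over these 4 classes from 0.196 through 0.369 and 0.535 to 0.719 CPM per gene in wild-type, from 0.0859 to 0.536 in hrde-1 and from 0.0506 to 0.514 in hrde-2, and in the small cluster from 0.165 through 0.438 and 0.876 to 0.971 in wild-type, so the trend was not particular to H3K9me3. The small cluster of the hrde-1 and hrde-2 IgG libraries, with 18 and 4 counts in all, showed no steady rise. With isolated members only, the large to small ratio was -0.07 over the 9 libraries (exact sign-flip p = 0.082), and with isolated members matched on flanking GC content, an alternative added once the values were known, it was -0.03 (exact sign-flip p = 0.488). This mean covers GC classes that went opposite ways: in the highest class the large cluster was above the small one in all 9 libraries (log2 0.20, exact sign-flip p = 0.0039), and in the lower classes the ratio was -0.05, -0.17 and -0.10.

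No count in any of the 9 libraries was found for 35.1% of the overlapping members of the small cluster and 35.2% of those of the large cluster, against 0.719% and 1.41% of the isolated members. Members in an exon of a longer gene were the lowest, with 0.043 CPM per gene in the small and 0.038 in the large cluster, and 83.1% and 78.5% of them had no count. Isolated members in introns and between genes had 0.720 and 0.766 CPM per gene in the small cluster and 0.658 and 0.725 in the large cluster. Isolated members with and without the core motif had 0.740 and 0.759 CPM per gene in the small cluster and 0.727 and 0.703 in the large cluster, a difference that was not tested.

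The level also moved with base composition. Members were divided into 4 classes by the GC content of the gene and 100 bases on each side, with bounds at 15.8%, 24.9%, 27.6%, 30.3% and 49.3%. From the lowest to the highest class, isolated members had 0.302, 0.584, 0.775 and 1.20 CPM per gene in the small cluster and 0.286, 0.517, 0.722 and 1.38 in the large cluster, and isolated 21-base genes elsewhere had 0.306, 0.516, 0.754 and 1.67. Genes in the most AT-rich DNA thus had the lowest level in and out of the clusters. Of the members, 17.7% in the small and 27.3% in the large cluster were in the lowest class. The pooled IgG libraries showed no steady rise on isolated members of the large cluster, with 0.599 CPM per gene in the lowest class (Wilson 95% interval 0.422 to 0.851), then 0.812, 0.437 and 0.872 (0.643 to 1.18), while in the small cluster they had 0.264, 0.901, 1.16 and 1.11 and at isolated 21-base genes elsewhere 0.384, 0.695, 0.882 and 1.65. On all large cluster members, isolated or not, the IgG libraries rose from 0.219 CPM per gene in the lowest class (0.183 to 0.262) through 0.354 and 0.361 to 0.424 in the highest (0.367 to 0.489).

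The libraries differed most in the AT-rich members. In the large cluster, the highest H3K9me3 library was 2.20-fold above the lowest in the lowest GC class and 1.32-fold in the highest class, and in the small cluster the libraries spanned 2.41-fold in the lowest class and 0.482 to 0.625 CPM per gene in the highest. The log2 ratio of the highest to the lowest class was 1.49, 1.48 and 2.27 in wild-type, 1.99, 1.94 and 2.04 in hrde-1 and 1.45, 1.77 and 2.01 in hrde-2. Wild-type replicate 3, with the lowest cluster shares, had the steepest slope, and wild-type replicates 1 and 2 and hrde-2 replicate 1, with the highest large cluster shares, had the shallowest. The part of base composition in the differences between libraries was not tested.

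**Figure D3:**
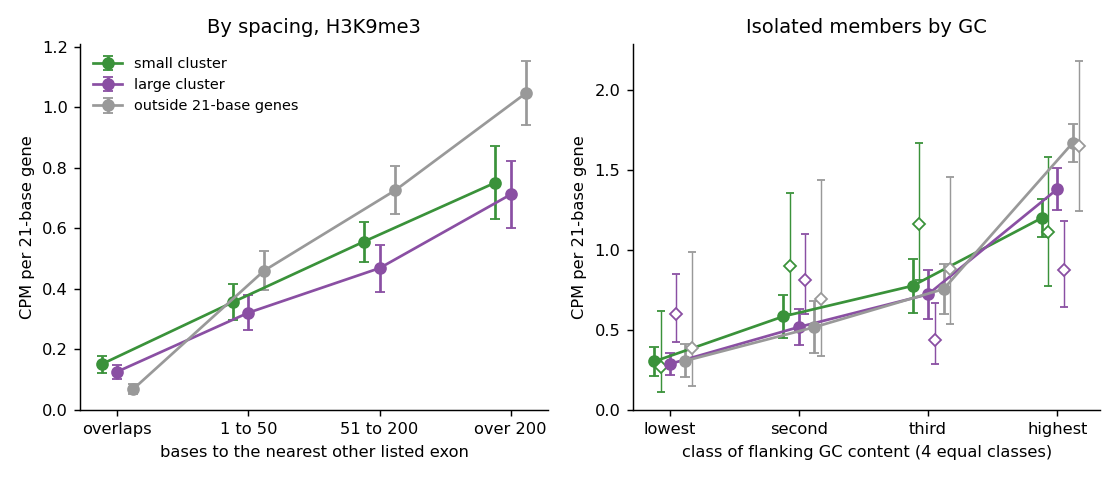
Level per gene (CPM per gene) by distance to the nearest other listed exon (left, all members) and by class of flanking GC content (right, isolated members), for the small cluster, the large cluster and the 21-base genes elsewhere. Filled points are means with SD over 9 H3K9me3 libraries and open diamonds, in the right panel only, pool the 3 IgG libraries with Wilson 95% intervals. The H3K9me3 level rises along both axes, from 0.151 to 0.750 by distance in the small cluster and from 0.286 to 1.38 by GC content in the large cluster. By GC content, the IgG points rise from 0.384 to 1.65 at isolated 21-base genes elsewhere. They go from 0.264 to 1.16 and 1.11 in the small cluster and show no steady rise in the large cluster.

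Compared with 21-base genes outside the clusters, members had less signal per gene. The log2 ratio to these genes was -0.47 ± 0.07 for the small and -0.90 ± 0.12 for the large cluster over the 9 libraries (SD, exact sign-flip permutation p = 0.00391 for each, the smallest possible). The ratio shrank when the genes compared were alike: matched on flanking GC content (also added once values were known), it was -0.18 and -0.51 (exact sign-flip p = 0.0039 for each). With isolated genes matched on GC content it was -0.06 (exact sign-flip p = 0.195) for the small and -0.09 (exact sign-flip p = 0.0156) for the large cluster. Unmatched, the members were also below the outside genes in each IgG library. In wild-type IgG the small cluster had 0.557, the large cluster 0.364 and the outside genes 0.589 CPM per gene. The values were 0.244, 0.221 and 0.982 in hrde-1 IgG and 0.138, 0.222 and 0.585 in hrde-2 IgG, from few counts. The order was thus not particular to H3K9me3.

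To see whether the signal was uneven along the clusters, members were summed in windows of 100 kb. The small cluster has 24 windows with a median of 124.5 members and the large cluster 37 with a median of 322. Among windows with at least 20 members, the level per gene ran from 0.302 to 0.623 CPM in the small cluster (21 windows, median 0.396) and from 0.243 to 0.484 CPM in the large cluster (37 windows, median 0.306), a range of 2.06-fold and 1.99-fold. The highest window lay at 0.623 against a median of 0.396 in the small cluster, and at 0.484 against 0.306 in the large cluster. The windows with the most members were not the highest. In the small cluster, the window with the most genes (5800001 to 5900000, 220 members) had 0.386 CPM per gene, and in the large cluster the window from 16000001 to 16100000 (486 members) had 0.267 ± 0.058.

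The highest windows of the small cluster were 6300001 to 6400000 (44 members, 0.623 ± 0.129 CPM per gene, SD over 9 libraries), 5500001 to 5600000 (211 members, 0.490 ± 0.069) and 5900001 to 6000000 (189 members, 0.488 ± 0.081). The lowest were 4800001 to 4900000 (149 members, 0.302), 5400001 to 5500000 (141 members, 0.319) and 4900001 to 5000000 (110 members, 0.341). In the large cluster the highest were 16300001 to 16400000 (189 members, 0.484 ± 0.102), 13500001 to 13600000 (24 members, 0.430 ± 0.165) and 16200001 to 16300000 (257 members, 0.390 ± 0.089). The lowest there were 16400001 to 16500000 (193 members, 0.243), 15000001 to 15100000 (190 members, 0.244) and 16900001 to 17000000 (184 members, 0.245). The highest and the lowest window of the large cluster thus lay side by side. Across windows, Spearman's rho between the number of members and the level per gene was -0.09 in the small (21 windows) and -0.25 in the large cluster (37 windows), and between the share of overlapping members and the level -0.12 and -0.48. Windows share the same libraries, so these values are descriptions.

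**Figure D4:**
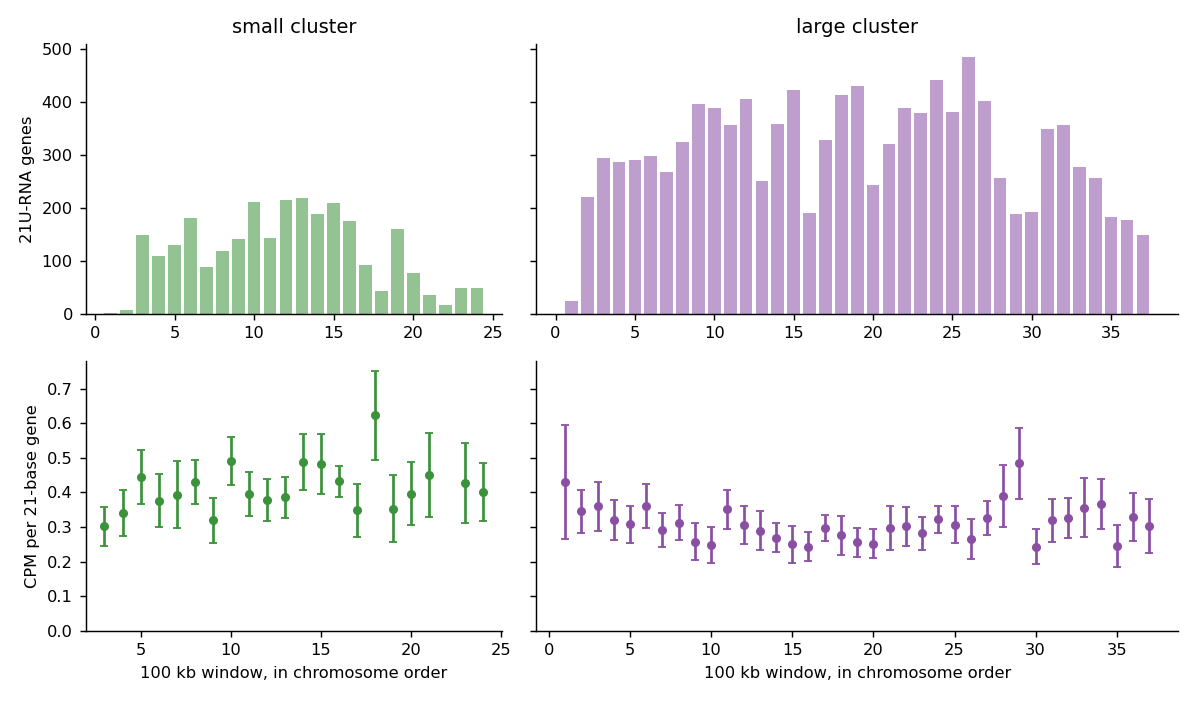
Number of member genes (top, bars) and level per gene (bottom, CPM per gene) in windows of 100 kb with at least 20 members, in order along the small and the large cluster. Points and error bars are means and SD over the 9 H3K9me3 libraries; levels lie between 0.302 and 0.623 in the small and 0.243 and 0.484 in the large cluster, and the windows with the most genes are not the highest.

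Windows were tested for genotype differences with edgeR's quasi-likelihood test, in a table where the members were replaced by their window sums and all other genes were kept. Of the 60 windows tested (23 small, 37 large; 1 small cluster window was too low to test), 0 passed an adjusted p of 0.05 in hrde-1 against wild-type, in hrde-2 against wild-type or in hrde-2 against hrde-1, where 0.712%, 0.496% and 0.45% of all rows passed. DESeq2 also called 0 windows in each. In hrde-1 against wild-type, 37 of the 37 large cluster windows had a log2 fold change below 0, with a median of -0.23 (from -0.60 to -0.01), where the median of the table was 0.00. In the small cluster 12 windows were below 0 and 11 above, with a median of -0.01 (from -0.40 to 0.31). At an unadjusted p under 0.05, 12 large and 1 small cluster windows were lower in hrde-1, where 6.44% of all rows were, and the smallest adjusted p was 0.122. The libraries of the genotypes overlapped in most windows. In CPM scaled by edgeR's TMM factors, 2 of 37 large and 0 of 23 small windows had all hrde-1 libraries below all wild-type ones, against 7.57% of all rows.

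The downward direction in hrde-1 rested in part on single wild-type libraries. Without wild-type replicate 1, 28 of the 37 large cluster windows were below 0, with a median of -0.10. Without wild-type replicate 3, 37 were below 0 with a median of -0.42, and 9 windows passed an adjusted p of 0.05 in edgeR, while 20 of the 23 small cluster windows were then below 0 as well, with a median of -0.23. Without wild-type replicate 2, 36 of the 37 were below 0. The values for the large cluster thus moved with which wild-type libraries were used, as its shares did.

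In hrde-2 against wild-type, 24 large cluster windows were below 0 and 13 above (median -0.04), and 8 and 15 in the small cluster (median 0.04). Unadjusted, 0 large and 1 small cluster windows passed 0.05, where 9.36% of all rows did. Without wild-type replicate 1, 9 of the 37 large cluster windows were below 0 (median 0.08), and without wild-type replicate 3, 35 were (median -0.25). Set directly against hrde-1, hrde-2 was above it in 37 of 37 large cluster windows (median 0.19, 5 at an unadjusted p under 0.05, where 3.24% of all rows were; 4 windows did not overlap, against 7.13% of all rows) and 19 of 23 small cluster windows (median 0.17, 1 at an unadjusted p under 0.05). In the small cluster 1 window was higher and 1 lower without overlap, against 7.13% and 6.87% of all rows. Without hrde-2 replicate 1 the large cluster median was 0.06, with 31 windows above 0, and the small cluster median was 0.005, with 12 of 23 above 0. The comparisons with wild-type share the wild-type libraries. The window with the highest level of the small cluster, 6300001 to 6400000, had a log2 fold change of -0.40 ± 0.18 (SE) in hrde-1 with an adjusted p of 0.392 in edgeR, and of the large cluster windows, 16200001 to 16300000 had -0.47 ± 0.14 (adjusted p = 0.122) and 16300001 to 16400000 had -0.38 ± 0.14 (adjusted p = 0.258).

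**Figure D5:**
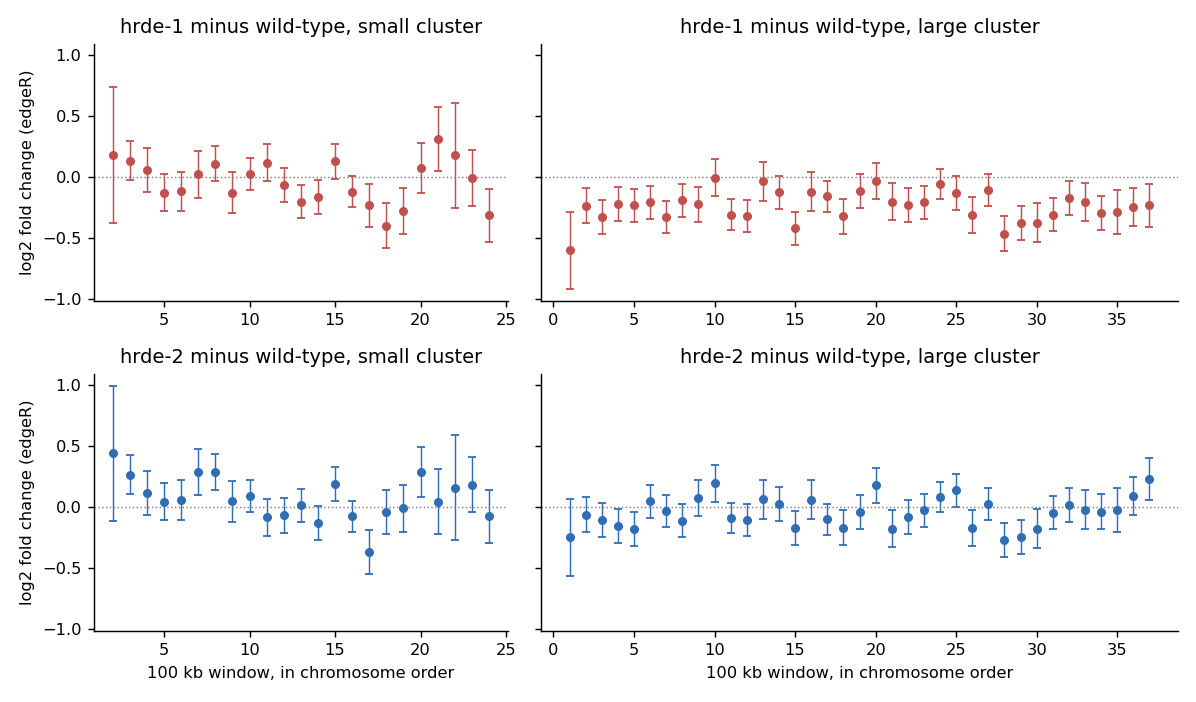
Log2 fold change of each 100 kb window against wild-type in hrde-1 and hrde-2, in order along each cluster. Points and error bars are edgeR estimates with their SE; in hrde-1 the 37 large cluster windows lie between -0.60 and -0.01 and none passed the adjusted threshold.

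Counts on single members were sparse. Summed over the 9 H3K9me3 libraries, the median member had 11 counts in the small and 7 counts in the large cluster, 447 (15.9%) and 2180 (19.1%) had none, and the highest had 239 and 476. In any one H3K9me3 library, 22.4% to 56.9% of the small cluster genes and 19.4% to 48.8% of the large cluster genes had a count. The count filter of the test of single genes was passed by 164 small cluster genes (5.82%) and 345 large cluster genes (3.03%), so most members were too low to test singly. In wild-type replicate 2, the shallowest H3K9me3 library, a count of 0 allows up to 2.52 CPM, and in the hrde-2 IgG library up to 292 CPM.

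The members with the most counts varied between libraries of the same genotype. In the small cluster, 21ur-7377 had 40, 10 and 33 counts in wild-type, 28, 19 and 40 in hrde-1 and 21, 28 and 20 in hrde-2 (5.27 ± 1.73 CPM over 9 libraries, SD). The gene 21ur-11105 had 24, 6 and 26 counts in wild-type, 25, 29 and 44 in hrde-1 and 16, 32 and 34 in hrde-2 (4.88 ± 1.14 CPM), and 21ur-14134 had 20, 7 and 28 in wild-type, 38, 26 and 47 in hrde-1 and 10, 17 and 15 in hrde-2 (4.41 ± 1.96 CPM). In CPM, the 3 hrde-2 libraries lay below the 3 wild-type ones for 21ur-7377 and 21ur-14134, as for 6.5% of all rows of the window table, and the genotypes overlapped for 21ur-11105. In the large cluster, 21ur-15381 had 30, 11 and 53 counts in wild-type, 52, 89 and 58 in hrde-1 and 62, 62 and 59 in hrde-2 (9.80 ± 2.26 CPM). The gene 21ur-15575 had 61, 17 and 44 counts in wild-type, 54, 66 and 52 in hrde-1 and 27, 60 and 32 in hrde-2 (9.02 ± 2.82 CPM), and 21ur-3387 had 46, 10 and 55 in wild-type, 41, 87 and 31 in hrde-1 and 55, 57 and 29 in hrde-2 (8.45 ± 2.39 CPM). In CPM, the hrde-2 libraries of 21ur-15381 lay above the wild-type ones, as for 7.15% of all rows, and those of the other two overlapped. All 6 lie in DNA with a flanking GC content of 36.2% to 43.4%, within the highest GC class of the members. None of them passed the adjusted threshold in any contrast, and 21ur-3387 had 4 counts in the hrde-2 IgG library.

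Of all 28691 genes tested singly in hrde-1 against wild-type, 0.188% were called higher and 0.572% lower. Of the 509 members among them, 1 was called, and it was higher. This gene, 21ur-5149, had 5, 0 and 4 counts in wild-type, 23, 21 and 35 in hrde-1, 11, 10 and 11 in hrde-2 and 0 in each IgG library. Its wild-type counts were all below the minimum count of 10, so it passed the count filter only through the mutant libraries, where it was higher. A count of 0 allows up to 21.9 CPM in the wild-type, 114 in the hrde-1 and 292 in the hrde-2 IgG library. The highest H3K9me3 library of this gene had 5.22 CPM, so the IgG libraries cannot show its background. In CPM, the hrde-1 libraries of 21ur-5149 lay above the hrde-2 ones, as for 6.87% of all rows of the window table. Its hrde-2 libraries lay above the wild-type ones, as for 7.15% of all rows. Its log2 fold change in hrde-1 was 2.63 ± 0.65 (SE, edgeR quasi-likelihood test, adjusted p = 0.0397), and in hrde-2 it was 1.52 with an adjusted p of 0.499. The call was lost in all 9 fits that left out 1 library, with adjusted p between 0.0551 and 0.269 and a log2 fold change between 2.46 and 2.97, and DESeq2 gave it no adjusted p. Without wild-type replicate 3, 2 other members were called, both lower in hrde-1. In hrde-2 against wild-type and in hrde-2 against hrde-1, 0 members were called in edgeR, where 0.495% and 0.443% of all genes were, and DESeq2 gave an adjusted p to 0 and 1 of them and called 0. At an unadjusted p under 0.05, 5 small cluster members were higher and 5 lower in hrde-1, and 7 higher and 3 lower in hrde-2, while in the large cluster 5 were higher and 12 lower in hrde-1 and 8 higher and 13 lower in hrde-2. Of all genes tested, 4.65% were higher and 6.36% lower in hrde-1, and 4.16% and 5.14% in hrde-2. In hrde-2 against hrde-1, 6 small cluster members were higher and 3 lower and 18 large cluster members higher and 7 lower, where 3.25% and 3.2% of all genes were.

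The genes that make and use 21U-RNAs were examined beside the clusters. Of 17 such genes listed, 16 were found, and all 16 were tested: 0 were called in hrde-1 against wild-type and 1 in hrde-2, where 0.31% of all genes were called lower. Their median log2 fold change was -0.02 in hrde-1 and 0.05 in hrde-2, beside a median of all genes between 0.00 and 0.01. Of the genes of transcription, prde-1, which is needed for 21U-RNA precursors in the clusters, had 16.0 ± 4.71 CPM in wild-type, 17.0 ± 2.05 in hrde-1 and 16.7 ± 2.32 in hrde-2 (SD, n = 3), and snpc-4, its partner at the clusters, had 56.3 ± 15.1, 51.4 ± 4.69 and 58.0 ± 3.86. The PIWI Argonaute gene prg-1 had 98.7 ± 10.4 CPM in wild-type, 96.2 ± 6.61 in hrde-1 and 118 ± 12.9 in hrde-2, with adjusted p of 0.910 and 0.613 in edgeR. The gene called was parn-1, which encodes the exonuclease that trims the 3′ ends of 21U-RNAs (WBGene00010734, chromosome V, 12692486 to 12695255). Its level was 65.4 ± 7.67 CPM in wild-type, 44.4 ± 3.19 in hrde-1 and 43.0 ± 5.88 in hrde-2. In both mutants its libraries lay below the wild-type ones, as for 7.57% (hrde-1) and 6.5% (hrde-2) of all rows of the window table. Its log2 fold change was -0.60 ± 0.15 in hrde-2 (SE, adjusted p = 0.0419, edgeR) and -0.55 in hrde-1 (adjusted p = 0.0601), where it passed the threshold without a count filter (adjusted p = 0.0447) and without wild-type replicate 1 (adjusted p = 0.0291). The call in hrde-2 was lost in 7 of 9 fits that left out 1 library (adjusted p between 0.0157 and 0.349) and without TMM scaling (adjusted p = 0.150).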

How the data were processed

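The deposited files hold counts per gene, which the authors made by aligning CUT&Tag fragments with Bowtie2 2.5.0 to WS258 and counting them with featureCounts 2.0.1 over exons, each fragment going to the gene of largest overlap; strand was not used. A fragment tied between genes was not counted, and removal of duplicate fragments is not given in the sources used here. The table was used as deposited, with every row named.

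Members, gene lists and tests were chosen with earlier results of these data known. Shares were taken over nuclear counts without rRNA genes and compared between groups of 3 libraries by exact two-sided permutation tests (scipy 1.17.1), and within libraries by exact sign-flip tests. Windows and single genes were tested with edgeR 4.0.16 (quasi-likelihood, TMM, minimum count 10) in R 4.3.3 over the whole table, with Benjamini-Hochberg adjustment; DESeq2 1.42.0 was an alternative. Windows without overlap of libraries, and every share of all rows without overlap, were counted in CPM scaled by TMM. Single genes set beside these shares were compared in CPM of nuclear counts without rRNA, a different scaling. The functions were tested on simulated data. Named windows were the 3 highest, the 3 lowest and the fullest of each cluster, and named members the 3 with the most counts and any called in edgeR. Sequences and positions are from the RefSeq WBcel235 genome and biotypes from Ensembl release 115; WS258 is the same assembly. The alternatives were other denominators, window sizes, filters, scalings, members, a replicate block and leaving out each library. H3K9me3 depth was 1192489 to 6974793 nuclear counts without rRNA.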

Additional observations from a re-analysis of the deposited data

Results flagged for a closer look

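The small cluster share differed in direction between genotypes when H3K9me3 libraries were set against the IgG library of the same genotype, and this difference was not tested. All 3 wild-type libraries were below their IgG library, with a mean difference of -0.0409 percentage points. All 3 hrde-1 libraries were above theirs, by a mean of 0.0409, and all 3 hrde-2 libraries above theirs, by a mean of 0.0795. Each difference rests on a single IgG library, with 215 counts on the small cluster for wild-type, 18 for hrde-1 and 4 for hrde-2. The large cluster gave -0.0434, 0.0596 and 0.103, with 1 of 3 wild-type libraries above its IgG library.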

How the results depend on the processing

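Leaving aside the single genes 21ur-5149 and parn-1, of 128 values recomputed with all libraries kept, 117 kept their direction and side of the threshold (or, for counts, stayed within 1.5 times), and of 171 recomputed without 1 library, 147 did. For shares and ratios compared between genotypes, the exact p cannot go below 0.1. Their side of the threshold was therefore fixed, and only their direction could change. Without 1 library, the call of 21ur-5149 in hrde-1 was kept in 0 of 9 fits and that of parn-1 in hrde-2 in 2 of 9, and without TMM scaling parn-1 lost it (adjusted p = 0.150, edgeR). Without a count filter, edgeR called 328 genes in hrde-1 and 249 in hrde-2, against 218 and 142 with it. The large cluster share in hrde-2 minus wild-type changed sign over all counts (0.00086) and over nuclear counts with rRNA (0.00083). The small cluster over local genes in hrde-2 minus wild-type changed sign with isolated members (0.0647). The share in H3K9me3 minus IgG libraries passed 0.05 over all counts, at 0.0364 for the small cluster (exact permutation p = 0.0227) and 0.0778 for the large cluster (exact permutation p = 0.0409), and over nuclear counts with rRNA for the small cluster, at 0.0347 (exact permutation p = 0.0318). The large over small ratio in all H3K9me3 libraries no longer passed with isolated members, at -0.0749 (exact sign-flip p = 0.082), or with isolated members matched on GC content, at -0.0302 (exact sign-flip p = 0.488), and the small cluster over outside genes no longer passed with the latter, at -0.0623 (exact sign-flip p = 0.195). The GC alternatives were chosen after seeing the data. The cause of these shifts was not tested. The large over small contrasts kept their direction in all 33 alternatives.

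Without 1 library at a time, edgeR called between 95 and 301 genes in hrde-1, 50 and 205 in hrde-2 and 76 and 186 in hrde-2 against hrde-1, and between 0 and 9 windows in hrde-1. The large cluster over local genes ranged from -0.287 to 0.0407 in hrde-1 and -0.152 to 0.175 in hrde-2 (log2), and its share in hrde-2 from -0.0644 to 0.0127. The small cluster over local genes ranged from -0.279 to 0.0157 in hrde-1, -0.194 to 0.100 in hrde-2 and -0.0117 to 0.163 in hrde-2 minus hrde-1, and its share from -0.0211 to 0.00393, -0.0122 to 0.0129 and -0.00065 to 0.0164.

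The replicate numbers did not pair the samples, with correlations of same-numbered libraries between -0.0459 and 0.125. With the replicate number as a block, the large over small ratio in hrde-1 minus wild-type was -0.17. Its exact sign-flip p was 0.25, the smallest that 3 pairs allow. With the block, edgeR called 292, 165 and 144 genes in hrde-1, hrde-2 and hrde-2 against hrde-1, against 218, 142 and 127 without it. It called 0 windows with and without the block. No call on a window, 21ur-5149 or parn-1 changed. Calls on a share or a ratio could not change. Their exact p cannot go below 0.25 with the block or 0.1 without it.

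Depth limited the IgG comparison and the single genes: the hrde-2 IgG library had 10268 nuclear counts without rRNA.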
